A study of Mus musculus with 5 samples.

Results

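The heat shock chaperones described here are 10 mouse genes, Hspa1a, Hspa1b, Dnajb1, Hsph1, Hsp90aa1, Hsp90ab1, Hspa8, Hspd1, Hspe1 and Hspb1, out of 23771 genes measured in 4T1 cancer cells isolated from metastatic lungs. The list was chosen by gene name from a comparison of these same cells, with the measured levels already known. Their differences between the libraries are therefore a description and carry no test. The 4T1 line is a mouse mammary carcinoma line, and the injected cells carried CD90.1, a Thy1 variant that serves as a reporter.

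Both groups were female BALB/c mice aged 11 weeks when their lungs were taken, 16 days after intravenous injection of 25000 4T1 CD90.1 cells. Before the cancer cells, one group had received repeated injections of Tumor-Secreted Factors (TSF), medium conditioned by pieces of resected tumors, and the other Control Medium (CM) incubated without tumor. The comparison asks how cancer cells that colonize a primed lung differ from those in an unprimed lung. Lungs of 3 mice per group were dissociated with enzymes and pooled into 1 single-cell library, so differences between mice cannot be seen and no test between groups was possible. The authors' annotation gave 139 cancer cells in the TSF library, out of 5197 cells, and 29 in the CM library, out of 3835.

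Heat shock chaperones bind unfolded stretches of other proteins and help them fold, or hold them until they can fold. Hsp70 proteins (Hspa1a, Hspa1b, Hspa8) cycle on and off their clients with ATP, J-domain proteins such as Dnajb1 bring them clients and start the ATP step, and exchange factors such as Hsph1 release the ADP. Hsp90 proteins (Hsp90aa1, Hsp90ab1) act later on kinases and receptors, Hspd1 and Hspe1 form the folding chamber of the mitochondrial matrix, and the small protein Hspb1 holds clients without ATP. Some of these genes are made at all times and others mainly when the transcription factor Hsf1 is active, which binds heat shock elements, inverted repeats of the unit GAA in promoters.

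The promoters of the heat-inducible members are shown first, because such elements are what the family is known for. RefSeq windows on GRCm38.p6, each from 250 bases before to 50 after a start, were found for 7 of the 10 genes and not for Hsp90aa1, Hsp90ab1 and Hspa8. They were searched on both strands for the pair GAANNTTC or TTCNNGAA, and for 3 alternating units, GAANNTTCNNGAA or TTCNNGAANNTTC, which contain overlapping pairs. The 150 bases before the start of 4 genes read as follows, with matches to the pair in capitals.
Hspa1b: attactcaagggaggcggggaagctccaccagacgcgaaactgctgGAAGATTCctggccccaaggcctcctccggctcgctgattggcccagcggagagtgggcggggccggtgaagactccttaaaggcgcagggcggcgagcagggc
Hspa1a: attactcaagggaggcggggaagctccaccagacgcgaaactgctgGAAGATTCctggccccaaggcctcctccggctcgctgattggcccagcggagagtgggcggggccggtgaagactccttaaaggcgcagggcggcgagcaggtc
Dnajb1: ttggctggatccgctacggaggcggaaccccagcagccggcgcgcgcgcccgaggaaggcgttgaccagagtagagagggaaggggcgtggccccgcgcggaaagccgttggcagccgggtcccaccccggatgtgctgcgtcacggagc
Hspb1: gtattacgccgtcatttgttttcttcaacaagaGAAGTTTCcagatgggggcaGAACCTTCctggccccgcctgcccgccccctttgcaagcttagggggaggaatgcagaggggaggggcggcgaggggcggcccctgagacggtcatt
These lie at chr17:34959239-34959388 (minus strand), chr17:34972157-34972306 (minus strand), chr8:83608025-83608174 (plus strand) and chr5:135887769-135887918 (plus strand). Hspa1b and Hspa1a held the same pair at the same place, starting 104 bases before the start base, and their windows differed at 4 of 300 bases. Hspb1 held 2 pairs, 117 and 97 bases before its start. No window of Dnajb1 held the pair, which says only that these letters are not in the window.

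Runs of 3 alternating units were found in Hsph1, Hspd1 and Hspe1. Only the matched bases are shown, again in capitals.
Hspe1: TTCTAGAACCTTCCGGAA
Hsph1: TTCTGGAAAGTTC
The Hspe1 run of 18 bases at chr1:55088059-55088076 (plus strand) holds 4 units in a row and starts 89 bases before the Hspe1 start. The same DNA, read on the other strand, is the match in the window of Hspd1, because the pair of genes start next to each other and run in opposite directions. The Hsph1 run of 13 bases at chr5:149636288-149636300 (minus strand) starts 15 bases after the start base of the first of its windows, and a further pair lies 54 bases before that start. The pair was present in 6 of the 7 genes and in 16.97% of all 27025 genes with a window. The 3 units were present in 3 of the 7 and in 0.662% of all these genes. A match is a description of letters and not of binding.

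The annotated cancer cells of both libraries carried epithelial keratins. The keratin Krt8 stood at 11.1 UMIs per 10000 UMIs of a cell (CP10k, a mean over cells) in TSF and 10.3 in CM, and all 8 carcinoma markers had a UMI in 10% or more of the cells of one library. One of them, the epithelial adhesion gene Epcam, was over 1.5-fold higher in TSF, at 1.28 against 0.195 CP10k (95 of 139 and 8 of 29 cells). The junction genes Cdh1, Cldn4 and Cldn7 also had smaller shares in CM. They had a UMI in 35, 25 and 74 of 139 TSF cells and in 2, 3 and 9 of 29 CM cells. Cdh1 reached 10% through TSF alone. The shares of Krt8 and Krt7 were slightly larger in CM. None of 12 leukocyte markers reached a share of 10% in either library, after the authors' subtraction of ambient RNA. Their summed level was 1.06 CP10k in TSF and 0.00958 in CM, with 4 and 11 of the 12 listed at 0, and S100a9, a neutrophil protein, gave 0.685 CP10k in TSF, from 4 cells. Of 12 endothelial, mesenchymal and alveolar markers 2 reached the share, with summed levels of 0.881 and 0.262 CP10k, and 3 and 8 listed at 0. The summed levels of these other markers were thus higher in the TSF library, opposite to most of the chaperones. They came largely from S100a9, S100a8 (0.300 CP10k in TSF, from 2 cells) and Dcn (0.526 CP10k, from 16 cells). Cd79a and Scgb1a1 were higher in CM. A gene is more easily listed at 0 among 29 cells than among 139. The part of these markers in the results was not tested. The paper states that cancer cells were identified at the first clustering by CD90.1 expression. This reporter had a UMI in 48 of 139 TSF and 2 of 29 CM cells, so most of the annotated cells had none.

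Median depth per cancer cell was 26615 UMIs in TSF and 27679 in CM, with ranges of 909 to 69674 and 973 to 51807. Cells under 10000 UMIs made up 10.07% and 27.59%. One UMI in a cell of median depth adds 0.0027 CP10k to the TSF mean and 0.0125 to the CM mean, so low levels were coarser in CM. Intervals below are exact 95% binomial intervals for shares of cells or their ratios and cover counting error only.

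In cancer cells of the TSF library, the inducible Hsp70 gene Hspa1b, its J-domain partner Dnajb1 and the constitutive Hsp70 gene Hspa8 were lower than in the CM library by over 1.5-fold, with 1 added to each mean CP10k. On that scale the Hsp90 gene Hsp90ab1 and the mitochondrial Hspe1 differed little. Hsph1 and Hspd1 were lower, and the other Hsp90 gene Hsp90aa1 higher, by less than 1.5-fold. The small heat shock gene Hspb1 was higher by over 1.5-fold. Together the 10 genes made up 1.04% of the UMIs of an average cancer cell in TSF and 1.36% in CM, or 104 against 136.2 CP10k. Hspa8 held 75.5% of that difference, and without it the sums were 76.0 and 83.9 CP10k.

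**Figure D1:**
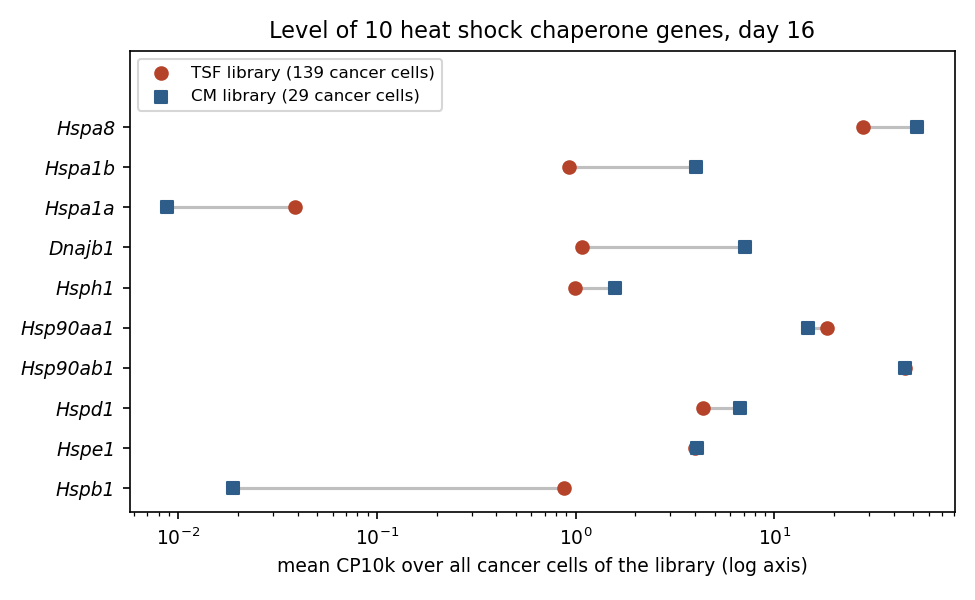
Mean CP10k (UMIs in every 10000 of a cell, log axis) of the 10 genes in the cancer cells of day 16, circles for the TSF library (139 cells) and squares for the CM library (29 cells), with 1 library per group and no error bar. Hspa8, Hspa1b and Dnajb1 lie lower in TSF, Hsp90ab1 and Hspe1 lie nearly on top of each other, and Hspb1 lies higher in TSF.

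Dnajb1 (chr8:83608193-83612653, plus strand, 3 exons) is the J-domain protein that activates Hsp70 in the cytosol and nucleus under stress. Its level was 1.08 CP10k in TSF and 7.14 in CM, a 6.60-fold lower level in TSF. On the scale used for all genes below, which adds 1 to each mean CP10k and takes log2 of TSF over CM, the difference was -1.97, the 7th lowest of 10201 genes. A UMI of Dnajb1 was present in 98 of 139 TSF cells (70.5%, 62.2 to 77.9) and in 26 of 29 CM cells (89.7%, 72.7 to 97.8). The intervals overlapped, and most of the difference was in the mean level of cells with a UMI. Cells with a UMI averaged 1.53 CP10k in TSF and 7.96 in CM, 5.19-fold apart. How this level was spread over the cells was not measured. No 100-base stretch of its transcript was shared with another gene.

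Hspa1b (chr17:34956436-34959238, minus strand, 1 exon) encodes the Hsp70 that many stressed cells make. Its level was 0.932 CP10k in TSF and 4.02 in CM, 4.31-fold lower in TSF, with a log2 difference of -1.38 that ranked 23 from the lowest. The number of cells with a UMI differed as well. A UMI was present in 57 of 139 TSF cells (41.0%, 32.7 to 49.7) and in 24 of 29 CM cells (82.8%, 64.2 to 94.2). These intervals did not overlap, as for no other member, and the ratio of the shares was 0.495 with an exact conditional interval from 0.303 to 0.835. Cells with a UMI averaged 2.27 and 4.86 CP10k. Both the share of cells with Hspa1b UMIs and the mean level in those cells were lower in TSF.

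Hspa1a (chr17:34969190-34972156, minus strand, 1 exon) is the near-identical neighbor of Hspa1b, 9951 bases away. It was nearly unseen, with 0.0388 CP10k from 6 TSF cells and 0.00883 from 1 CM cell, shares of 4.32% (1.60 to 9.16) and 3.45% (0.0873 to 17.8). A difference was not detectable at this depth, and Hspa1a did not pass the filter on low values, a UMI in 10% or more of the cells from one library. Reads of this pair are hard to assign, since 49.9% of the 100-base stretches of the Hspa1b transcript, and 54.8% of the 500 nearest its 5' end, also occur in Hspa1a. The low level of Hspa1a is therefore uncertain. Summed over both genes, the level was 0.971 CP10k in TSF and 4.03 in CM.

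Hspa8 (chr9:40800984-40810087, plus strand) is the Hsp70 that cells make without stress, and serves folding, clathrin uncoating and chaperone-mediated autophagy. It was seen in nearly every cell, 138 of 139 in TSF and 29 of 29 in CM. Its level was 28.0 CP10k in TSF and 52.3 in CM, 1.87-fold lower in TSF, with a log2 difference of -0.88 that ranked 71 from the lowest. Since the shares were 99.3% and 100%, the difference was one of mean level per cell. Of its 100-base stretches 62.8% also occur in 7 other annotated genes, all with unnamed Gm symbols, so reads of these copies may have been left out or counted elsewhere in both libraries.

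Hsph1 (chr5:149614287-149636376, minus strand), the Hsp110 that releases ADP from Hsp70, stood at 0.998 CP10k in TSF and 1.57 in CM. Its log2 difference of -0.36 lay inside the 1.5-fold line. A UMI was present in 101 of 139 (72.7%) and 23 of 29 cells (79.3%), with overlapping intervals. Without the added 1, Hsph1 passed the line at -0.65. It lay on the same side as its Hsp70 partners but closer to 0.

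The Hsp90 genes lay inside the 1.5-fold line and closer to 0 than Hspa1b, Dnajb1 and Hspa8. Hsp90aa1 (chr12:110690605-110702728, minus strand), the form that stress raises, stood at 18.4 CP10k in TSF and 14.8 in CM, a log2 difference of 0.29. Hsp90ab1 (chr17:45567775-45573271, minus strand), the constant form, stood at 45.3 and 45.6 CP10k. Its log2 difference of -0.01 turned to 0.09 when ribosomal protein and mitochondrial genes were left out of the totals, so no direction is given. Hsp90ab1 was seen in every cell of both libraries and Hsp90aa1 in 138 of 139 and 28 of 29. Stretches shared with 3 other annotated genes made up 47.5% of Hsp90aa1 and 0% of Hsp90ab1.

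Hspd1 and Hspe1, which code for the chamber and the lid of the mitochondrial chaperonin, are neighbors that face away from each other at chr1:55077835-55088243 (minus strand) and chr1:55088132-55091307 (plus strand), with 112 bases in common. Hspd1 stood at 4.39 CP10k in TSF and 6.69 in CM, a log2 difference of -0.51 that was the nearest to the 1.5-fold line from inside and that passed it, at -0.61, without the added 1. Hspe1 stood at 4.00 and 4.08 CP10k, a log2 difference of -0.02 that became 0.06 without ribosomal protein and mitochondrial genes. The run of units found in a window of each lies within annotated exons, as do all bases before the Hspe1 start, and the other Hspd1 window held no pair. Cells with a UMI numbered 131 and 28 for Hspd1 and 130 and 28 for Hspe1, over 90% in both libraries. How reads in the common bases were assigned is not given in the sources used here.

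Hspb1 (chr5:135887919-135889563, plus strand), which codes for the small heat shock protein Hsp25 (Hsp27 in humans), was the member that was over 1.5-fold higher in TSF. Its level was 0.879 CP10k in TSF and 0.019 in CM, a log2 difference of 0.88 that ranked 22 from the highest. The CM value came from 2 of 29 cells (6.90%, 0.846 to 22.8) and the TSF value from 21 of 139 (15.1%, 9.60 to 22.2). The intervals of the shares overlapped, and their ratio of 2.19 had an interval from 0.535 to 19.3. In the TSF cells with a UMI the mean was 5.82 CP10k, so a minority of cells carried the whole level. It passed the filter through the TSF library alone, where it is high, so that its place among the filtered genes was bound to show a difference. Of its 100-base stretches, 42.7% also occur in the annotated pseudogene Hsp25-ps1.

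**Figure D2:**
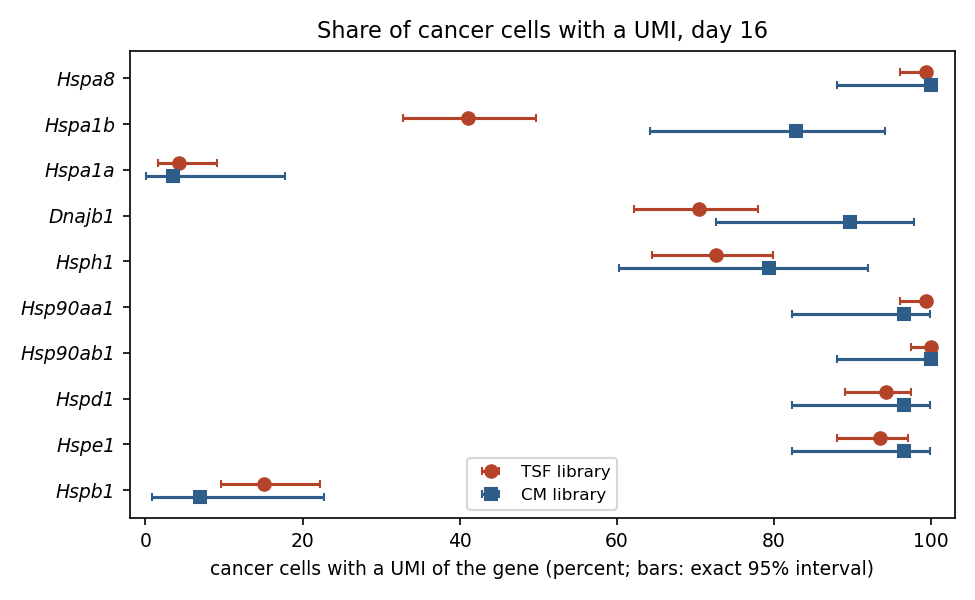
Percent of cancer cells with at least 1 UMI of each gene in the TSF library (circles, 139 cells) and the CM library (squares, 29 cells), with exact 95% intervals for counting error. Only for Hspa1b, at 41.0% and 82.8%, do the intervals lie apart.

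The share of cells and the level per expressing cell can be read side by side for each gene. For Dnajb1, Hspa8, Hsph1 and Hspd1 the lower mean in TSF lay mostly in the level per expressing cell, with TSF over CM ratios of 0.193, 0.538, 0.694 and 0.673. The shares of cells with a UMI stood in ratios of 0.786, 0.993, 0.916 and 0.976. For Hspa1b both parts contributed alike, with 0.495 for the share and 0.468 for the level. A share depends on depth, and cell types expected not to make these genes were not analysed here, so background from free RNA was not measured.

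**Figure D3:**
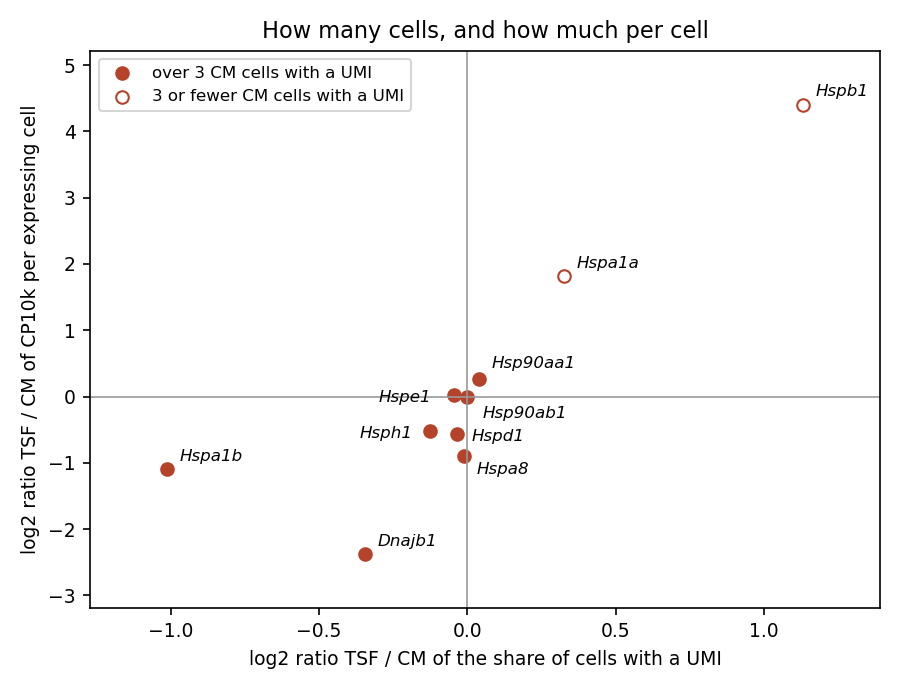
Each gene by the log2 TSF over CM ratio of its share of cells with a UMI (horizontal axis) and of its mean CP10k per cell with a UMI (vertical axis), open circles for genes with 3 or fewer such CM cells. Hspa1b lies to the lower left on both axes, Dnajb1 and Hspa8 lie low on the vertical axis, and the 2 open circles rest on 1 and 2 CM cells.

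Among all genes, 10201 passed the filter. Of these, 199 (1.95%) were over 1.5-fold lower in TSF and 77 (0.755%) over 1.5-fold higher. Of the 9 chaperones that passed, 3 were lower and 1 was higher. Their median log2 difference was -0.36, with 7 below 0 and 2 above, and the median over all genes was -0.03, with 6095 below 0 and 4106 above. Hsp90ab1 and Hspe1, close to 0, turned positive when ribosomal protein and mitochondrial genes were left out or when values were centred on the median gene, which gave 5 below 0 and 4 above. Because the chaperones were chosen from this comparison, nothing is read from these counts. When ribosomal protein and mitochondrial genes were left out of the totals, all genes gave 229 lower and 140 higher, 37.9% of calls higher in place of 27.9%, and the chaperone counts stayed at 3 and 1.

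**Figure D4:**
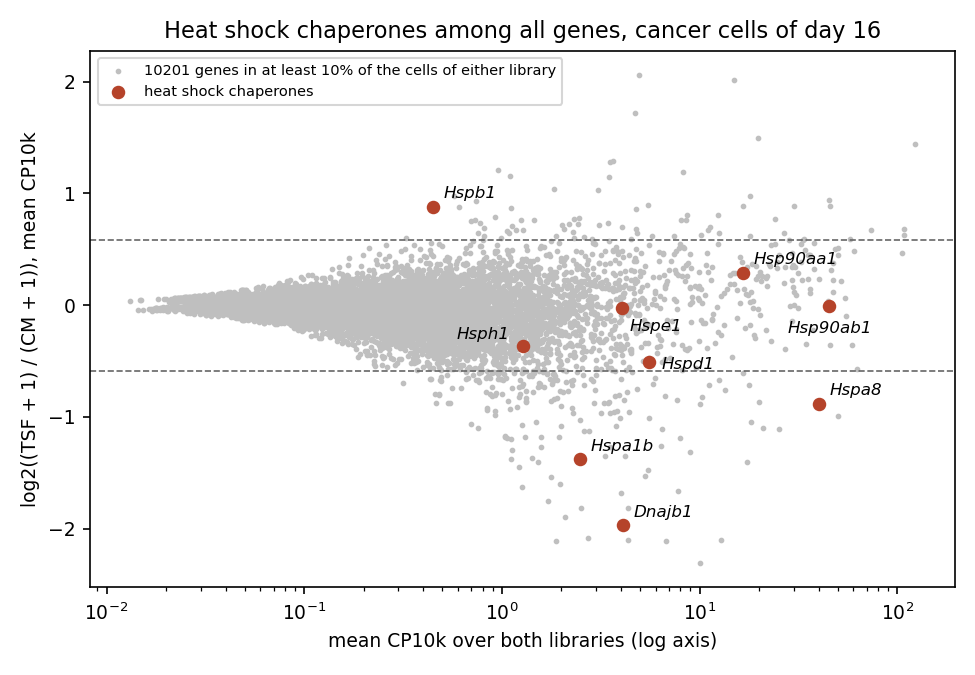
Log2 ratio of TSF over CM (mean CP10k plus 1, vertical axis) against the mean CP10k of both libraries (log axis) for the 10201 genes that passed the filter, with the chaperones marked and dashed lines at 1.5-fold. Dnajb1, Hspa1b and Hspa8 lie under the lower line and Hspb1 above the upper one.

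Other parts of the chaperone network, taken as 8 lists with 94 genes, showed smaller differences on the scale that adds 1 to each mean CP10k. That scale shrinks the differences of genes with low levels, as many of these were. Each of the lists held genes whose CM levels were too low to be counted lower at any TSF level. The counts of the lists therefore say nothing about a lower level of such genes. Other pseudocounts, totals and centring were not applied to these lists. Of the 85 genes that passed the filter 5 were over 1.5-fold lower in TSF (5.88%) and 0 higher, beside 1.95% and 0.755% of all genes. Of the 5, Ptges3, Ppid and Pdia4 lay just past the line. No test was made, and the median of the 85 was -0.08. The lists were drawn up with earlier results of these cells known.

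Heat shock factors switch on the inducible members. Their list, which also holds Hsbp1, had 0 of 3 filtered genes past 1.5-fold on the scale that adds 1. Hsf1, the main factor, stood at 0.197 CP10k in TSF and 0.479 in CM, and Hsbp1, which binds Hsf1 and holds it back, at 2.17 and 1.96. Hsf2 stood at 0.0811 and 0.161. With 1 added to each mean, Hsf1 and Hsf2 could not be counted lower at any TSF level, because their CM levels were too low. The count therefore says nothing about a lower level of these genes. Hsf4 and Hsf5 had no UMI in any of the 168 cells. Transcript levels do not show whether the factors were active.

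Among other cytosolic Hsp70, Hsp110 and small heat shock genes, 1 of 8 was past the line. This was Hspb8, a small heat shock protein that works with Bag3 in the removal of damaged proteins, at 0.891 CP10k in TSF and 2.14 in CM (108 of 139 and 24 of 29 cells). It lay on the opposite side from Hspb1. Of 13 other J-domain genes and 9 exchange factors and partners of Hsp70, 0 were past the line, with medians of -0.11 and -0.02. Their best-expressed genes by UMIs were Dnaja1, the J-domain partner of Hspa8, at 3.20 and 4.13 CP10k, and St13, which links Hsp70 to Hsp90, at 1.85 and 1.61. None of these J-domain genes differed by as much as Dnajb1, the lowest log2 difference being -0.58.

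Of 13 Hsp90 co-chaperones 2 were lower and 0 higher. Ptges3, the p23 protein that steadies the closed form of Hsp90, stood at 2.80 CP10k in TSF and 4.70 in CM, and Ppid, a prolyl isomerase that binds Hsp90, at 1.09 and 2.16. Both lay just past the line, at log2 differences of -0.59 and -0.60, while the Hsp90 genes themselves did not.

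The cytosolic chaperonin TRiC and its partner prefoldin had 0 of 14 genes past the line. Cct2, a TRiC subunit, stood at 3.72 and 4.67 CP10k, and all 14 log2 differences lay between -0.26 and 0.13. Other mitochondrial chaperones and proteases also had 0 of 12, with Hspa9, the mitochondrial Hsp70, at 1.46 and 2.54 CP10k. Of 13 endoplasmic reticulum chaperones 2 were lower, the disulfide isomerases Pdia3, at 4.20 and 7.48 CP10k, and Pdia4, at 1.03 and 2.05. Pdia4 lay just past the line, at a log2 difference of -0.59.

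Many immediate-early genes, which cells switch on rapidly after many stimuli, were also lower in TSF. Of 15 such genes 8 (53.3%) were over 1.5-fold lower in TSF and 0 higher, beside 1.95% and 0.755% of all genes that passed the filter. Below 0 lay 14 of 15, beside 6095 of all 10201 genes. The list and all genes were not matched for level, and many of the 10201 had CM levels too low to be counted lower with 1 added. Without the added 1, 3027 of 10121 genes were lower and 1562 higher, and the list was not counted on that setting. The summed level was 64.8 CP10k in TSF against 144.3 in CM. This list too was drawn up with earlier results of these cells known. The transcription factor genes Atf3 (2.73 and 17.5 CP10k), Egr1 (1.92 and 11.6) and Jun (9.06 and 25.7) were among them, beside Junb, Ier2, Zfp36, Klf6 and Nr4a1. Their median log2 difference was -1.05. The part of these differences in the Hspa1b and Dnajb1 values was not tested, and with 1 library per group the treatment and the handling of a library cannot be told apart.

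**Figure D5:**
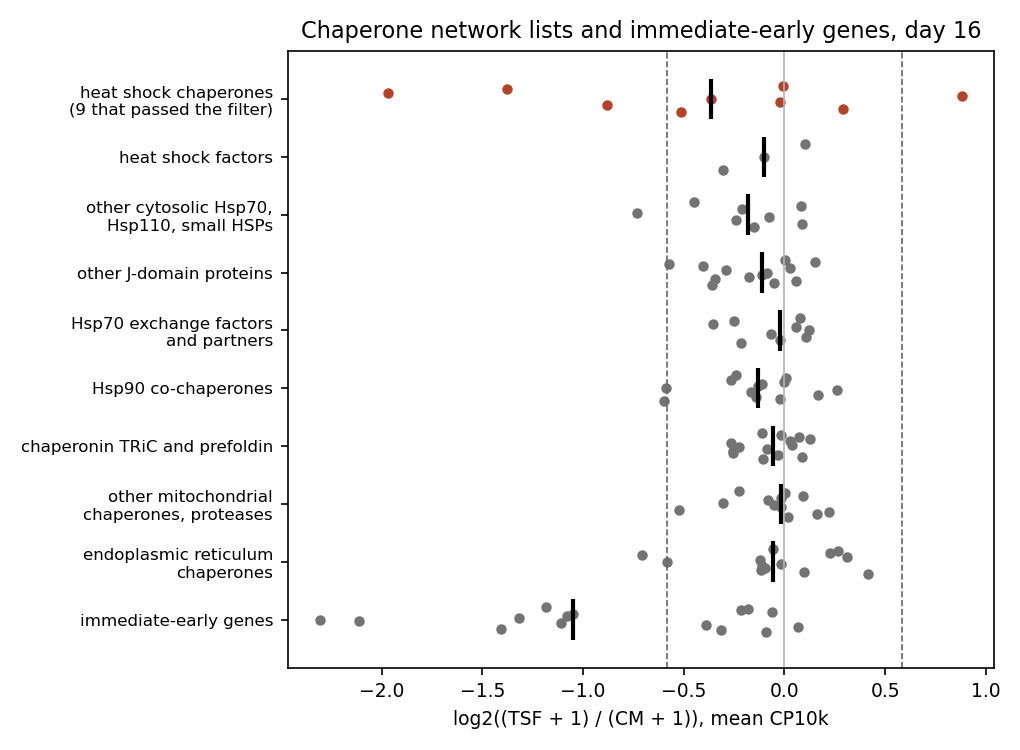
Log2 ratio of TSF over CM (mean CP10k plus 1) of every gene that passed the filter in the chaperones, 8 other chaperone network lists and the immediate-early genes, with black bars at list medians and dashed lines at 1.5-fold. The chaperones spread from -1.97 to 0.88, the 8 other lists have medians between -0.18 and -0.02, and the immediate-early genes have a median of -1.05.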

How the data were processed

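Dissociated lungs were measured with 5' droplet single-cell RNA sequencing. Per the paper's methods and the labels, the authors mapped reads with Cell Ranger to mm10 (GRCm38) with CD90.1 added. They corrected UMIs for ambient RNA with SoupX, with its automatic contamination estimate raised. Matrices were imported and genes compared with Seurat 4.1.0. Cells were clustered with Monocle3 and the clusters named by hand, cancer cells by their CD90.1 expression. The deposited gene table holds, for cancer cells of day 16, mean CP10k per library (UMIs in every 10000 of a cell) and the authors' number (count) and percent of cells with a UMI. Its fold changes, p-values and scores, and an enrichment table, are the authors' own results and were not used. The deposited cell table gives UMI counts and the percent of mitochondrial UMIs per cell. Its rows of 2 sample names were not used. The libraries shared 31 cell barcodes, and 0 among cancer cells. No single-cell matrix was used, so doublets were not called again and shares were not thinned to equal depth.

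Ratios used a pseudocount of 1, which understates changes of low genes, and genes seen in 10% or more of the cells from one library. A gene was counted past 1.5-fold by size alone. No test was made with 1 library per group. The sum over cancer cells was 3937739 UMIs in TSF and 726849 in CM. Shares have Clopper-Pearson intervals (scipy 1.17.1, Python 3.11.15). Gene positions are from GENCODE M21 and promoters from RefSeq. Scripts were tested on simulated data. The members, the other lists and the tests were chosen with earlier results of these data known. Genes named are the 10 members and, of each other list, those past 1.5-fold or, where a list has none, its gene with the highest mean CP10k, beside genes named for a marker check. Hsf1 and Hsf2 were named after their values were seen. Alternatives were other pseudocounts, filters, folds, totals and centring, and shares or levels per expressing cell.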

Additional observations from a re-analysis of the deposited data

How the results depend on the processing

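Of the log2 ratios of single chaperones under the alternatives, 52 stayed on their side of the 1.5-fold line, 6 went past it and 2 no longer did, and none of those past the line changed sign. With a pseudocount of 0.1, 5 chaperones were lower (Hsph1 at -0.60 and Hspd1 at -0.60 joined), their median was -0.60, and 1762 genes were lower and 748 higher. With none, 5 were lower, the median was -0.61, and 3027 genes were lower and 1562 higher. By shares of cells 1 chaperone, Hspa1b, was lower, the median was -0.035, Dnajb1 stood at -0.35 and Hspa8 at -0.01, with 1282 genes lower and 1084 higher. Per expressing cell 346 genes were lower. Without ribosomal protein and mitochondrial genes 140 genes were higher. Without a filter the chaperone median was -0.19. At a filter of 25% of cells 0 chaperones were higher, and at 2-fold 0 were higher, with 54 genes lower and 13 higher. The CM values rest on 29 cells of 1 library of pooled mice. For genes seen in few of them, such as Hspb1 and Hspa1a, the shares of cells have wide counting intervals. No interval was made for a mean CP10k or a fold of any gene, Dnajb1 and Hspa8 included. Differences between mice are not measured.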
